A study of Mus musculus with 16 samples.

Results

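Khk, Tkfc, Glyctk, Sord, Slc2a2 and Slc2a5 are the genes described here, 6 of the 50559 gene symbols in a table of mouse liver RNA. They were chosen by symbol, as Khk and the other enzymes and transporters that take up, make or break down fructose, a rule that uses no measured value, although earlier results of these data were known when the genes were picked. The study asked how losing the enzyme ketohexokinase (KHK) differs from blocking its kinase activity in the liver. RNA-Seq gave 16 liver libraries from male C57BL/6J mice, 4 in each of 4 groups.

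All mice started their diet at 6 weeks of age and stayed on it for 10 weeks, with the treatments given over the last 4 weeks. The LFD group ate a low-fat diet, which the labels call chow, and was given methylcellulose by gavage with injections of luciferase control siRNA (10 mg/kg every 2 weeks). The HFD group ate a diet with 60% of its calories from fat and received the same control siRNA and methylcellulose. The HFD + siRNA group ate the HFD and received methylcellulose and 20 mg/kg of siRNA against total KHK instead of the control. The HFD + Inhib group ate the HFD and received control siRNA with the inhibitor PF-06835919, gavaged at 15 mg/kg in methylcellulose 2 times per day. The siRNA carried a GalNAc tag that is taken up by hepatocytes, whereas the inhibitor was given by mouth to the whole animal. The doses of the siRNAs differed, and mice were injected with saline or insulin shortly before the liver was taken. Which of the sequenced mice received insulin is not given in the sources used here.

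Fructose enters hepatocytes through facilitative sugar transporters and is phosphorylated by KHK to fructose 1-phosphate, which is then split into dihydroxyacetone phosphate and glyceraldehyde. Glyceraldehyde then joins glycolysis after phosphorylation by triokinase (TKFC), or it is oxidized to glycerate and phosphorylated by glycerate kinase (GLYCTK). Sorbitol dehydrogenase (SORD) makes fructose inside the cell from sorbitol, the closing step of the polyol pathway that begins with the reduction of glucose. The liver is known as the main site of these reactions, together with the intestine and the kidney.

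Khk is transcribed from chromosome 5 and gives KHK-C, the liver form, and KHK-A through alternative exons, and the deposited table has 1 value for both. The study's isoform primers show where the forms differ, since the first matched 2 and the second 1 of the 4 protein-coding Khk transcripts of GENCODE M21 (bases without capitals, as no part is singled out):
Khk-a forward primer: ttgccgattttgtcctggat
Khk-c reverse primer: ccaccaggaagtcggcaa
Every Khk value below is therefore a sum over both forms.

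The promoters of Khk and Tkfc are shown because these members fell most with the inhibitor. Each run is 300 bases of RefSeq sequence from build GRCm38.p6, from 250 bases before the annotated start to 50 after it, with a CACGTG motif in capitals. The Khk window lies at chr5:30921309-30921608 on the plus strand, and the Tkfc window at chr19:10604209-10604508 on the minus strand:
Khk promoter: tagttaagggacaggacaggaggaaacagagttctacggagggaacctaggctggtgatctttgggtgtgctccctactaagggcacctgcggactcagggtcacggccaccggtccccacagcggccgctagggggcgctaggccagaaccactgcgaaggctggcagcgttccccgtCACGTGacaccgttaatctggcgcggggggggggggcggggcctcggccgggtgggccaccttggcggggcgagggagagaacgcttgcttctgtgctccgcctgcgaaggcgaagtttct
Tkfc promoter: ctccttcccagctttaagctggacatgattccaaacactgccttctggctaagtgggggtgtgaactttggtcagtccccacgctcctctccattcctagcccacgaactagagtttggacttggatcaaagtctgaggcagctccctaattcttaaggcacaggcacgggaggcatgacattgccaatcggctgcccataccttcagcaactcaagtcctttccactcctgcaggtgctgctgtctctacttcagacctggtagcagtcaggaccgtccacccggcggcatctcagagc
The windows were searched on both strands for CACGTG (an E-box core), AGGTCA (a nuclear receptor site), CAAAGTCCA (an HNF4 type site) and TATAAA (a core promoter box), none of which overlaps another in these windows. CACGTG was found in the Khk window, 71 bases before the start, and in 7.15% of the 32851 mouse promoters of the same length. The Tkfc, Sord and Slc2a5 windows held none of the 4 motifs. AGGTCA, present in 16.3% of all promoters, was found once in the windows of Glyctk and Slc2a2, and the windows of all 6 lacked CAAAGTCCA (0.47% of promoters) and also TATAAA (13.6%). The Khk and Tkfc windows also differed in base composition, with 65.7% and 54.7% GC.

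The libraries held between 24317111 and 35820234 counts, with medians of 28920038 for LFD, 26714482 for HFD, 30485808 for siRNA and 30468092 for the inhibitor. At this depth Slc2a5 had 58 to 193 counts per library and each of the other members 3207 or more, except Khk, whose lowest counts were 251 with KHK siRNA and 2921 with the inhibitor. All 6 members were among the 18335 genes that passed the filter on low counts. Levels below are normalized CPM (counts relative to the scaled library total), with the mean ± SD over 4 libraries. A gene was called higher or lower when the quasi-likelihood test of edgeR gave it an adjusted p under 0.05, adjusted over all tested genes after Benjamini and Hochberg. The labels number the replicates without naming the mice, so p-values measure only the spread between these samples, part of which may be technical.

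The tissue label was checked with 7 hepatocyte markers, all of which were expressed. Their summed level was 82170 ± 7729 CPM in LFD and 72820 ± 7726 in HFD, and among treated mice 77040 ± 4762 with siRNA and 47770 ± 1229 with the inhibitor (SD, n = 4 each), with albumin (Alb) the most abundant. Against HFD, 3 of the 7 were lower with the inhibitor, namely Alb, Ttr and Serpina1c, where 8.42% of all tested genes were lower. Alb averaged 29930 CPM with the inhibitor against 50980 in HFD, which is most of the drop in the sum. Apoa1, Ass1, Fgb and Cyp2e1 were not called, and Cyp2e1 averaged 6323 CPM with the inhibitor against 5284 in HFD. In bulk liver, fewer cells of a type and less RNA per cell cannot be told apart. Kidney markers were near 0, with Kap at 0 in all libraries.

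Across the 6 genes, the diet moved none past the test, the KHK siRNA lowered its target Khk, and the inhibitor lowered Khk, Tkfc and Glyctk. With the siRNA, Tkfc missed the threshold (edgeR adjusted p = 0.0897) and passed it when GC and length offsets were added to the fit (edgeR adjusted p = 0.0194), whereas the other settings tried gave adjusted p from 0.0525 to 0.292. The inhibitor took Tkfc to 39.8% and Khk to 45.3% of their HFD levels, whereas the siRNA took Khk to 4.79%. Neither treatment moved the transporters Slc2a2 and Slc2a5 past the test. Between the treatments, Khk was higher and Tkfc and Sord were lower with the inhibitor. The calls of Glyctk against HFD and of Sord between the treatments were lost in 4 and 3 of the 8 fits that each left out 1 library.

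**Figure D1:**
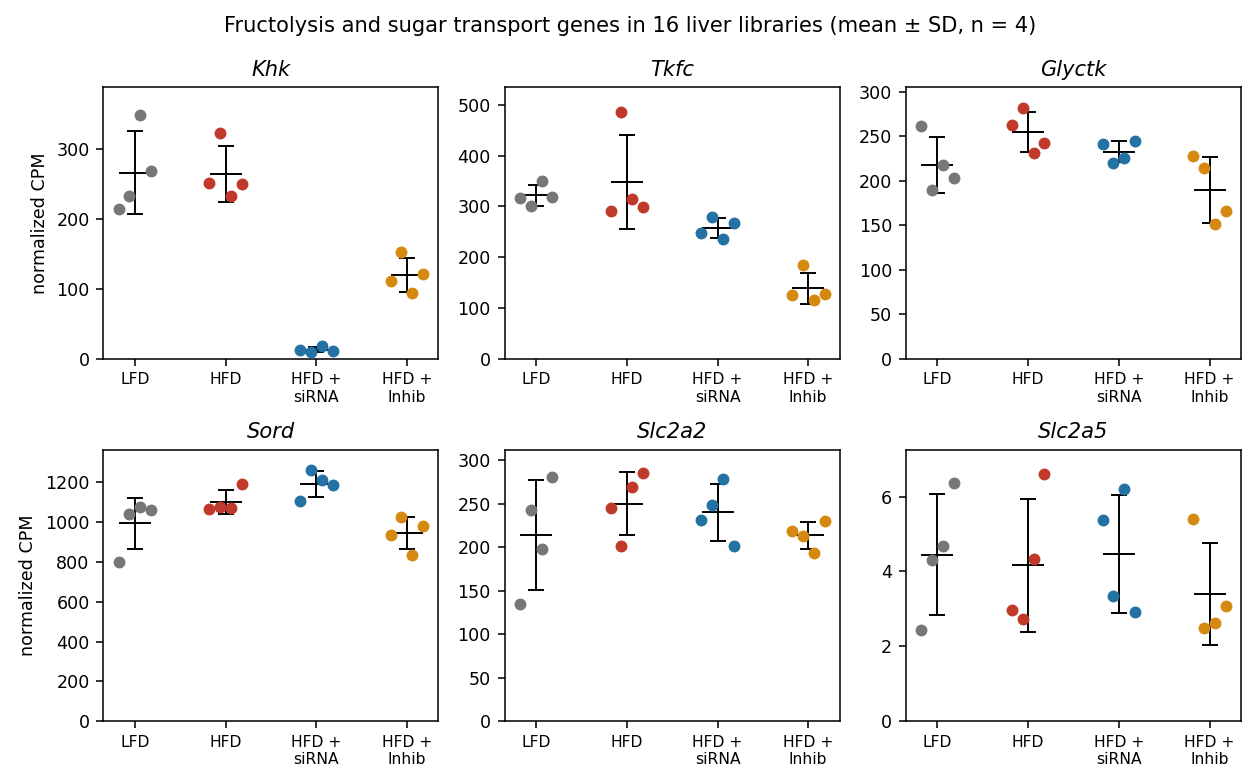
Normalized CPM (vertical axes, linear and starting at 0) of the 6 genes in the 4 groups, with 1 point per library and lines for the mean ± SD (n = 4). Khk lies between 9.14 and 18.14 CPM in the HFD + siRNA libraries, and all 4 HFD + Inhib libraries lie below all HFD libraries for Khk, Tkfc, Glyctk and Sord.

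The transporters came first in the order of the pathway. Slc2a2 on chromosome 3 encodes GLUT2, the main sugar carrier of the hepatocyte membrane, which moves glucose, galactose and fructose. It measured 134.4, 242.9, 198.1 and 280.9 CPM in the LFD libraries (replicates 1 to 4) and 244.8, 201.6, 269 and 285.6 CPM in the HFD libraries. With KHK siRNA it measured 231.7, 249, 278.5 and 201.1 CPM, and with the inhibitor 218.2, 212.5, 193.7 and 230.2 CPM. The groups overlapped in every comparison, and the LFD libraries spread most (SD 63 CPM around a mean of 214). The log2 fold changes were 0.22 in HFD versus LFD (95% interval -0.14 to 0.59), -0.06 in HFD + siRNA versus HFD (-0.43 to 0.31) and -0.23 in HFD + Inhib versus HFD (-0.60 to 0.14). None passed the test. Between the treatments the log2 fold change was -0.17 (edgeR adjusted p = 0.483), which became -0.56 (edgeR adjusted p = 0.00791) once GC content and transcript length were corrected for. Slc2a2 has the lowest GC content of the 6, at 41.7%.

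Slc2a5 on chromosome 4 encodes GLUT5, the fructose transporter best known from the intestine. Its levels were 2.432, 4.3, 4.689 and 6.361 CPM in LFD and 2.983, 2.723, 4.324 and 6.607 CPM in HFD. They were 5.378, 3.35, 6.209 and 2.93 CPM with siRNA and 5.406, 2.487, 2.623 and 3.088 CPM with the inhibitor. All 4 groups covered nearly the same range, from about 2 to 7 CPM. It changed by -0.11 on the log2 scale in HFD versus LFD (95% interval -0.84 to 0.62), 0.11 with siRNA against HFD (-0.62 to 0.84) and -0.28 with the inhibitor against HFD (-1.02 to 0.45). The intervals were wide beside a spread of 4.16 ± 1.78 CPM in HFD and 3.40 ± 1.36 with the inhibitor (SD, n = 4 each), at 58 to 193 counts per library, and changes within them could not be detected with these libraries. Of 4 intestinal markers 3 were in the table, and their summed level was 37.7 ± 5.83 CPM in LFD, 89.6 ± 9.31 in HFD, 107 ± 10.6 with siRNA and 135 ± 18.9 with the inhibitor, mostly from Fabp2. The markers differed in pattern. In the same order of groups, Fabp2 averaged 28.5, 82.4, 97.5 and 113 CPM, and Lgals4 8.56, 7.15, 9.02 and 21.9 CPM. Vil1, too low to test, averaged 0.61, 0.11, 0.11 and 0.33 CPM. Whether intestinal RNA has a part in the Slc2a5 values was not tested.

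Khk encodes the kinase that starts fructolysis and is the target of both treatments. Its levels were 213.9, 233, 349.3 and 268.7 CPM in the LFD libraries and 250.7, 322.5, 232.7 and 250.6 CPM in the HFD libraries. The diet groups overlapped, with means of 266 ± 59.9 and 264 ± 39.8 CPM (SD, n = 4 each) and a log2 fold change of -0.01 in HFD versus LFD (standard error 0.196, 95% interval -0.43 to 0.40, edgeR adjusted p = 0.975). The correction for GC content and transcript length moved it to 0.20 without a call.

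With KHK siRNA, Khk measured 11.83, 9.14, 18.14 and 11.52 CPM, below every library of every other group, so that the target gene matched the labels in all 4. Its log2 fold change against HFD was -4.38 (standard error 0.227, 95% interval -4.86 to -3.90, edgeR adjusted p = 1.88e-08). As shares of the HFD mean, the 4 libraries kept 4.48%, 3.46%, 6.87% and 4.36%. Against LFD the log2 fold change was -4.40 (edgeR adjusted p = 1.82e-08).

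With the inhibitor, Khk measured 111.7, 151.9, 94.57 and 120.5 CPM, which are 42.3%, 57.5%, 35.8% and 45.6% of the HFD mean. All 4 lay below all HFD and LFD libraries and above all siRNA libraries. The log2 fold change was -1.14 against HFD (standard error 0.198, 95% interval -1.56 to -0.72, edgeR adjusted p = 7.52e-04) and -1.15 against LFD (edgeR adjusted p = 3.32e-04). Between the treatments, Khk was 9.45-fold higher with the inhibitor than with siRNA, a log2 fold change of 3.24 (95% interval 2.78 to 3.70, edgeR adjusted p = 4.42e-08).

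Tkfc on chromosome 19 encodes triokinase and FMN cyclase, which phosphorylates the glyceraldehyde released from fructose 1-phosphate. It measured 316.3, 301.3, 350.1 and 318.6 CPM in the LFD libraries and 290.3, 485.6, 315.5 and 298.2 CPM in the HFD libraries. HFD replicate 2 stood above the rest, and the other 3 lay within the range of the LFD group or just under it. The same library had the lowest hepatocyte marker sum of the HFD group, at 61370 CPM against 75060 to 77900, and higher sums of adipocyte markers (7.73 CPM against 0.797 to 1.79) and lymphocyte markers (8.61 CPM against 3.34 to 5.04). The part of these differences in its Tkfc level was not tested. In HFD versus LFD the log2 fold change of 0.11 did not pass the test (95% interval -0.23 to 0.45, edgeR adjusted p = 0.671).

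In the HFD + siRNA libraries Tkfc measured 247.5, 279.7, 235.7 and 267.2 CPM, all below the lowest HFD library. The log2 fold change of -0.43 was not called (standard error 0.16, 95% interval -0.77 to -0.09, edgeR adjusted p = 0.0897). Correcting for GC content and transcript length made it a call, at -0.56 (edgeR adjusted p = 0.0194), and it was -0.23 (edgeR adjusted p = 0.292) without HFD replicate 2. Against LFD it was -0.32 (edgeR adjusted p = 0.256).

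In the HFD + Inhib libraries Tkfc measured 126.1, 183.7, 116.5 and 127.1 CPM, below every library of the other 3 groups. The log2 fold change was -1.33 against HFD (standard error 0.163, 95% interval -1.67 to -0.98, edgeR adjusted p = 3.19e-05) and -1.22 against LFD (edgeR adjusted p = 3.7e-05). The direct comparison of the treatments gave -0.90 (95% interval -1.24 to -0.56, edgeR adjusted p = 5.45e-04), so Tkfc differed between siRNA and inhibitor beyond the spread between replicates. Without HFD replicate 2 the value against HFD was -1.12, and without HFD + Inhib replicate 2 it was -1.502.

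Khk and Tkfc thus stood in different orders in the treated groups. Per kilobase of transcript, the log2 ratio of the Tkfc level to the Khk level lay between -0.80 and -0.24 in LFD, between -0.59 and -0.21 in HFD and between -0.72 and -0.50 in HFD + Inhib, so these groups overlapped. In HFD + siRNA the ratio lay between 2.90 and 4.13. Over the 12 libraries without KHK siRNA, log2 CPM of the genes had a Pearson correlation of 0.966, a description to which the lower level of both in the HFD + Inhib group contributes. Within groups, over the deviations of all 16 libraries from their group means, it was 0.43.

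**Figure D2:**
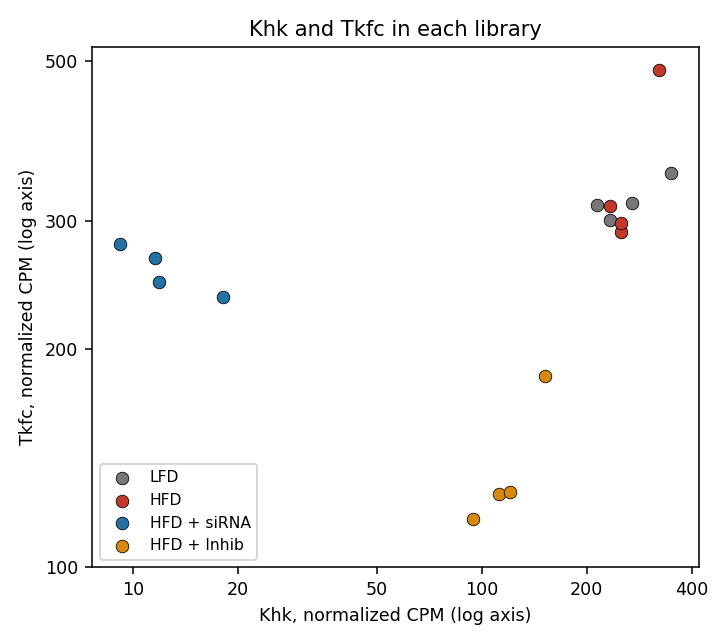
Tkfc against Khk in each of the 16 libraries, both as normalized CPM on log axes, with the colours giving the groups. The HFD + siRNA libraries lie at the left, below 20 CPM of Khk, with Tkfc between 235.7 and 279.7 CPM, and the HFD + Inhib libraries lie lowest in Tkfc, between 116.5 and 183.7 CPM.

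Glyctk on chromosome 9 encodes glycerate kinase, the enzyme that returns glycerate to glycolysis. It measured 261.3, 189.6, 217.9 and 202.7 CPM in LFD and 263.1, 281.2, 231.3 and 242.7 CPM in HFD. It measured 241.1, 219.5, 225.2 and 244.2 CPM with siRNA and 227.6, 214.1, 150.8 and 165.6 CPM with the inhibitor. The HFD libraries overlapped those of LFD and siRNA, and all 4 inhibitor libraries lay below the lowest HFD library, the closest by less than 4 CPM. The log2 fold change in HFD + Inhib versus HFD was -0.43 (standard error 0.128, 95% interval -0.70 to -0.15, edgeR adjusted p = 0.0288). This call was lost in 4 of the 8 fits that each left out 1 library. Its value was -0.41 (edgeR adjusted p = 0.0705) without HFD replicate 1 and -0.37 (edgeR adjusted p = 0.084) without HFD replicate 2. It was -0.33 (edgeR adjusted p = 0.0882) without HFD + Inhib replicate 3 and -0.36 (edgeR adjusted p = 0.0922) without HFD + Inhib replicate 4.

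In the other comparisons Glyctk was not called, with log2 fold changes of 0.22 in HFD versus LFD (95% interval -0.05 to 0.50) and -0.13 in HFD + siRNA versus HFD (-0.40 to 0.14). Correcting for GC content and transcript length made the first a call, at 0.39 (edgeR adjusted p = 0.0114). Between the treatments it was -0.29 (edgeR adjusted p = 0.0857), which passed with the replicate number as a block at -0.31 (edgeR adjusted p = 0.0488) and without HFD + Inhib replicate 1 at -0.38 (edgeR adjusted p = 0.0381), whereas the correction for GC and length brought it to -0.056 (edgeR adjusted p = 0.695). Against LFD the inhibitor gave -0.20 (edgeR adjusted p = 0.232).

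Sord on chromosome 2 encodes sorbitol dehydrogenase, which oxidizes sorbitol to fructose. It measured 802, 1039, 1077 and 1059 CPM in LFD and 1068, 1077, 1072 and 1194 CPM in HFD. It measured 1108, 1263, 1214 and 1185 CPM with siRNA and 936.5, 1025, 837 and 978.4 CPM with the inhibitor. Apart from 1 LFD library at 802 CPM and 1 HFD library at 1194 CPM, the diet groups lay within a band of 1039 to 1077 CPM. Changes on the log2 scale were 0.15 in HFD versus LFD (95% interval -0.07 to 0.37), 0.11 with siRNA against HFD (-0.11 to 0.33) and -0.22 with the inhibitor against HFD (-0.44 to -0.01), none of them called.

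The inhibitor libraries lay below all HFD libraries, and the correction for GC content and length gave a call there, at -0.30 (edgeR adjusted p = 0.0294). Between the treatments Sord was lower with the inhibitor, without overlap, where 32.4% of all genes did not overlap. The log2 fold change was -0.34 (standard error 0.103, 95% interval -0.56 to -0.12, edgeR adjusted p = 0.0189). That call was lost without HFD + siRNA replicate 2 (-0.29, edgeR adjusted p = 0.0542), without HFD + siRNA replicate 3 (-0.32, edgeR adjusted p = 0.0519) and without HFD + Inhib replicate 3 (-0.28, edgeR adjusted p = 0.0612). With siRNA against LFD Sord was 0.26 higher on the log2 scale, without overlap and without a call (edgeR adjusted p = 0.137). There 12.8% of all genes did not overlap.

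**Figure D3:**
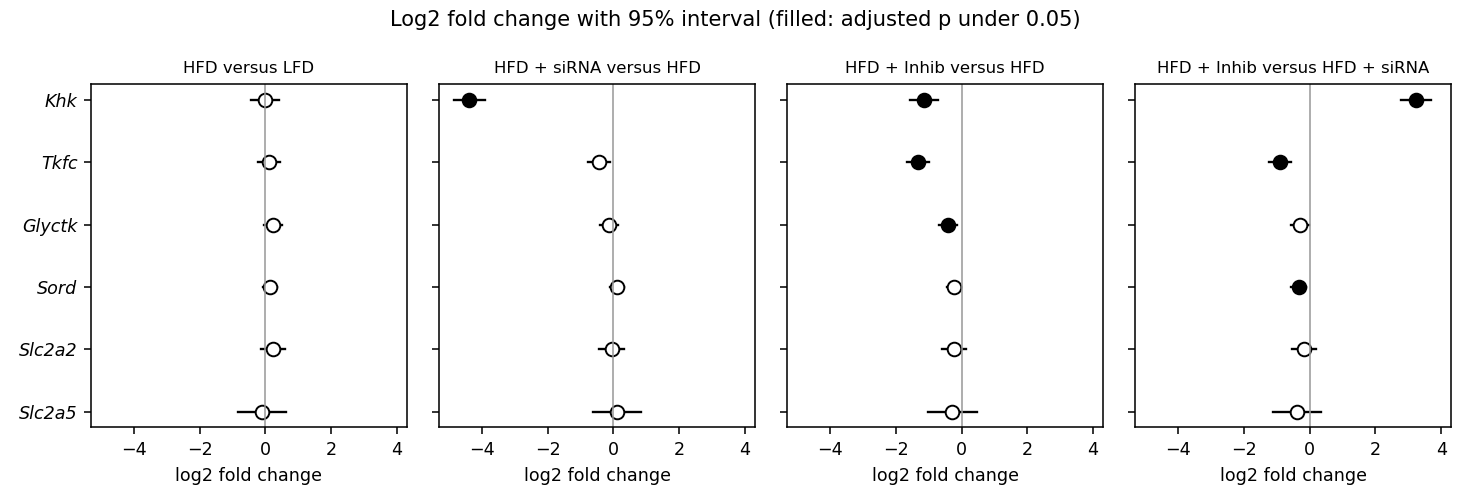
Log2 fold change (horizontal axes) of the 6 genes in 4 comparisons, with lines for the 95% interval and filled points for an edgeR adjusted p under 0.05. Khk stands at -4.38 with siRNA and -1.14 with the inhibitor against HFD, and Tkfc at -1.33 with the inhibitor.

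The counts of called members are read against the 18335 genes tested. For the diet (HFD versus LFD), 0 of the 6 were called by edgeR, 0 by DESeq2 and 0 at an unadjusted p under 0.05, where edgeR called 8.8% of all genes lower and 9.58% higher. In HFD + siRNA versus HFD 1 of 6 was lower and none higher, against 6.55% and 5.2% of all genes, and that 1 is the siRNA's target (2 lower and 0 higher at an unadjusted p under 0.05). In HFD + Inhib versus HFD 3 of 6 were lower and none higher, against 8.42% and 9.8% of all genes (4 lower and 0 higher at an unadjusted p under 0.05). Between the treatments, 1 was higher and 2 were lower with the inhibitor, against 17.3% and 16.6% of all genes. These shares are of edgeR calls at an adjusted p under 0.05. No share of all genes is given here for the DESeq2 and unadjusted counts, which cannot be read against them. The shares of all genes depend on single libraries. With 1 left out, the genes called fell as low as 2001 in HFD versus LFD (3370 with all). They fell as low as 1100 in HFD + siRNA versus HFD (2154 with all) and 965 in HFD + siRNA versus LFD (1582 with all).

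Against LFD, HFD + siRNA had 1 of 6 lower (3.88% of all genes lower, 4.75% higher) and HFD + Inhib had 2 of 6 lower, Khk and Tkfc (18.2% lower, 18.8% higher). The median log2 fold change of the 6 was 0.13 in HFD versus LFD, -0.10 with siRNA and -0.35 with the inhibitor against HFD, beside medians of -0.01, 0.02 and 0.00 over all tested genes. Groups without overlap were seen for 2 of the 6 with siRNA against HFD (Khk and Tkfc) and for 4 of the 6 with the inhibitor against HFD (Khk, Tkfc, Glyctk and Sord), where 20.6% and 23.3% of all genes did not overlap. Both comparisons use the same 4 HFD libraries. Against LFD, 12.8% of all genes did not overlap with siRNA and 31.2% with the inhibitor, and between the treatments 32.4%.

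Levels of different genes were compared per kilobase of the longest protein-coding transcript. On this scale Sord was the most abundant of the 6 in HFD liver at 469 ± 25.8 CPM per kb, followed by Khk at 167 ± 25.2 and Tkfc at 126 ± 33.6, whose ranges of 1 SD overlapped. Glyctk at 60.5 ± 5.24 and Slc2a2 at 44.9 ± 6.55 CPM per kb came next, and Slc2a5 at 1.32 ± 0.563 was lowest. The same order held for the group means in LFD and HFD + Inhib, whereas in HFD + siRNA Khk, at 7.995 ± 2.43 CPM per kb, stood between Slc2a2 (43.1 ± 5.81) and Slc2a5 (1.41 ± 0.50).

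**Figure D4:**
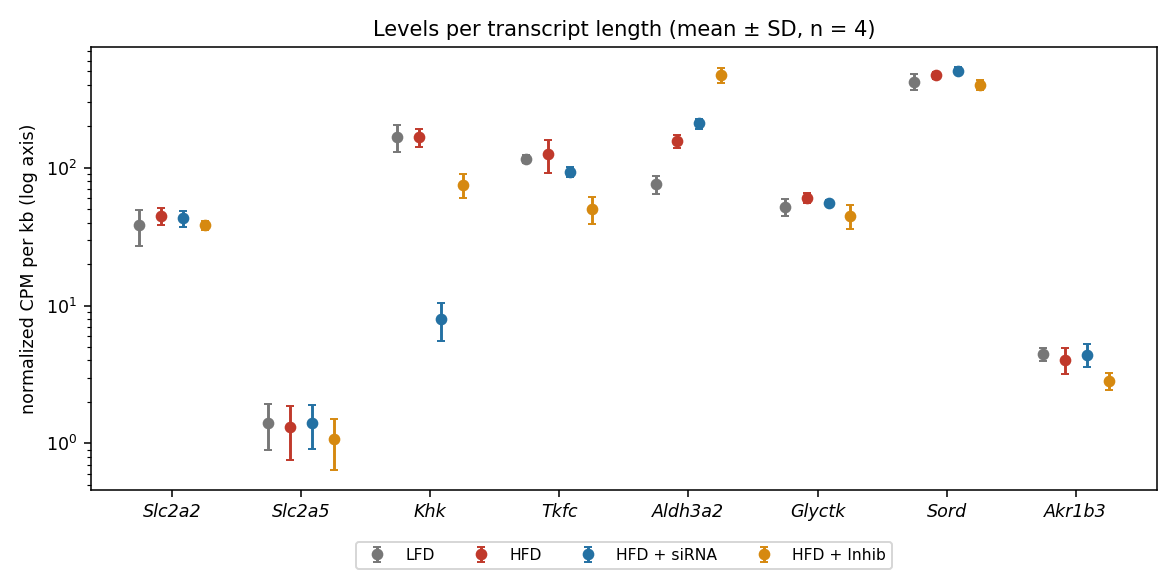
Mean level ± SD (n = 4) in normalized CPM per kilobase on a log axis, for the 6 genes with Aldh3a2 and Akr1b3, from the transporters at the left to the sorbitol pathway at the right. In HFD Sord lies highest, at 469 CPM per kb, and Slc2a5 lowest, at 1.32, and the siRNA group drops for Khk to 7.995 CPM per kb.

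Other genes of fructose, sorbitol and sugar transport were taken from a list with 39 symbols in the table, of which 33 were tested. In HFD versus LFD 1 of the 33 was higher and 4 were lower (median log2 fold change -0.13), against HFD the siRNA gave 4 higher and 0 lower (0.11), and the inhibitor gave 2 higher and 3 lower (-0.10). Between the treatments 1 was higher and 9 were lower with the inhibitor (-0.16). These edgeR counts stand beside the shares of all genes given above. At an unadjusted p under 0.05, 5 of the 33 were higher and 7 lower in HFD versus LFD. Against HFD these counts were 8 and 2 with siRNA and 5 and 7 with the inhibitor. DESeq2, run on all 39, called 2 higher and 6 lower in HFD versus LFD. Against HFD it called 6 higher and 1 lower with siRNA, and 3 higher and 5 lower with the inhibitor. No share of all genes is given here for the unadjusted and DESeq2 counts.

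The aldolases Aldoa and Aldoc fell in HFD versus LFD, Aldoa by 0.46 and Aldoc by 0.90 on the log2 scale, and neither was called under a treatment against HFD.

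Among the enzymes that can oxidize glyceraldehyde or reduce it, Aldh3a2 moved most. It encodes fatty aldehyde dehydrogenase and measured 235 ± 34.3 CPM in LFD, 482 ± 52.1 in HFD, 648 ± 53.8 with siRNA and 1452 ± 181 with the inhibitor. The rise was 1.03 on the log2 scale in HFD versus LFD (edgeR adjusted p = 9.48e-05), 0.43 with siRNA against HFD (edgeR adjusted p = 0.0338) and 1.59 with the inhibitor against HFD (edgeR adjusted p = 4.13e-07). Adh1, the alcohol dehydrogenase, had -0.27, 0.11 and 0.29 in these comparisons and was not called (edgeR adjusted p of 0.0632, 0.524 and 0.0501). Aldh2, the mitochondrial acetaldehyde enzyme, Aldh1a1 and Aldh1b1 were not called in them either. Akr1a1, the aldehyde reductase, rose with siRNA by 0.41 (edgeR adjusted p = 0.00897).

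Upstream of Sord, aldose reductase (Akr1b3) makes sorbitol from glucose. It was scarce, at 6.18 ± 0.688 CPM in LFD, 5.63 ± 1.18 in HFD, 6.12 ± 1.16 with siRNA and 3.94 ± 0.561 with the inhibitor. Against HFD it fell with the inhibitor by 0.52 on the log2 scale (edgeR adjusted p = 0.0463). Its relatives Akr1b8 and Akr1b10 were at about 1 to 2 CPM and were not called against HFD.

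The hexokinases Hk1, Hk2, Hk3 and Hkdc1 were not called in HFD versus LFD or in a treatment against HFD. Such enzymes can phosphorylate fructose at a low rate. The group means of Hk1, Hk2 and Hk3 lay between 2.70 and 5.95 CPM. Gckr, which encodes a regulatory protein that binds fructose phosphates, fell with the inhibitor against HFD from 122 to 82.3 CPM, a log2 fold change of -0.57 (edgeR adjusted p = 3.4e-04).

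Of the remaining listed genes, Grhpr, a glyoxylate and hydroxypyruvate reductase, rose with the inhibitor by 0.61 on the log2 scale (146 to 222 CPM), and Slc2a4, the muscle and fat glucose transporter, fell by 1.87 at group means under 1 CPM. With siRNA, Dcxr, the L-xylulose reductase, rose by 0.73 and the glucose transporter Slc2a1 by 0.55. In HFD versus LFD, Tpi1 (triosephosphate isomerase) fell by 0.34 and the intracellular transporter Slc2a8 by 0.79. Each of these had an adjusted p under 0.05 in the edgeR test.

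**Figure D5:**
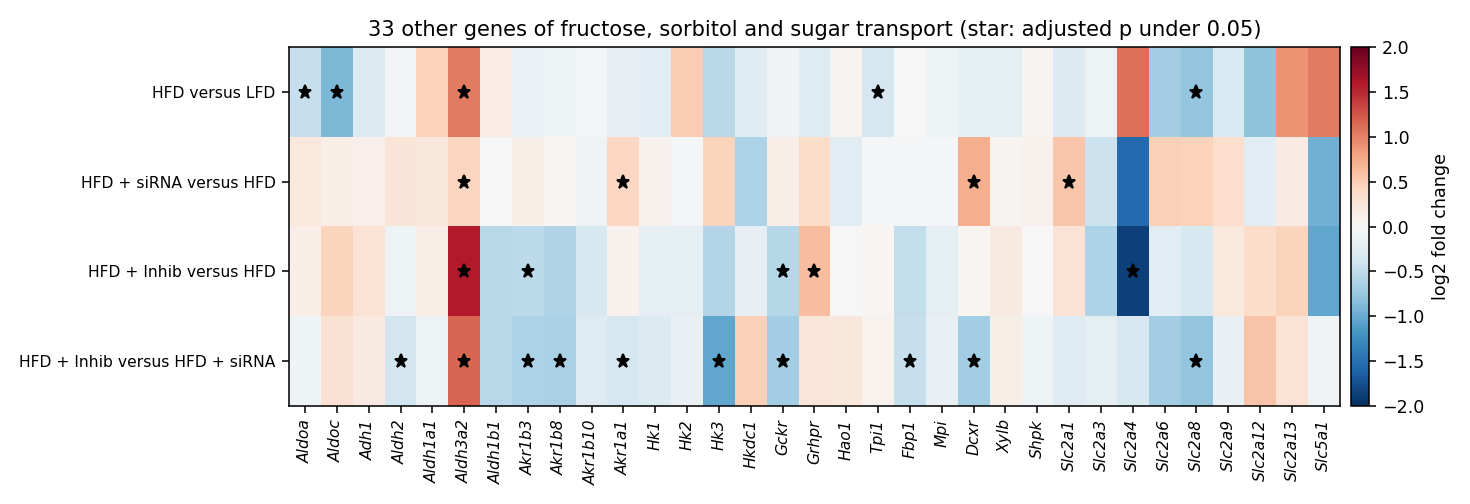
Log2 fold change (colour, blue lower and red higher, scale from -2 to 2) of the 33 tested list genes (columns) in 4 comparisons (rows), with a star for an edgeR adjusted p under 0.05. Aldh3a2 is the one gene with a star in all 4 rows, at 1.59 in HFD + Inhib versus HFD.

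ChREBP, encoded by Mlxipl, is the carbohydrate-responsive factor known to act on fructolysis genes. Mlxipl fell from 385 CPM in LFD to 250 in HFD (log2 fold change -0.62, edgeR adjusted p = 0.00317) and was at 247 and 254 CPM under the treatments. These values sum the alpha and beta forms of ChREBP. By qPCR the paper reported the beta form lower with siRNA, but not with the inhibitor. The textbook ChREBP target Pklr, the liver pyruvate kinase, was at 281 and 269 CPM in LFD and HFD, 110 with siRNA and 70.8 with the inhibitor. Against HFD its log2 fold change was -1.30 with siRNA (edgeR adjusted p = 0.00277) and -1.93 with the inhibitor (edgeR adjusted p = 3.15e-05). Me1, the gene of malic enzyme, named after its values were seen, fell from 266 CPM in HFD to 88.1 with siRNA (log2 fold change -1.60, edgeR adjusted p = 6e-04) and rose to 493 with the inhibitor (0.89, edgeR adjusted p = 0.00974). G6pc was called in none of the 3, and Txnip at 0.84 with the inhibitor missed the threshold (edgeR adjusted p = 0.053). Of 13 tested genes of this list, 2 were higher and 2 lower in HFD versus LFD, where 9.58% of all genes were higher and 8.8% lower. Against HFD, 2 were lower with siRNA (6.55% of all genes), and 1 was higher and 2 lower with the inhibitor (9.8% and 8.42% of all genes).

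The genes whose pattern was most like each member were sought by Pearson correlation of log2 CPM, a description over 16 libraries (12 for Khk, without the HFD + siRNA group) that share depth and group differences. Nearest to Khk were H2-Q5 (0.969), Tkfc (0.966) and Cyp2d40 (0.963), none of which was among the nearest 3 over all 16 libraries. Nearest to Tkfc were Otub2 (0.955), Hif1an (0.946) and Ccnf (0.939). For Sord they were Tmem44 (0.93), Tango2 (0.915) and Pon1 (0.901), for Glyctk Klhdc3 (0.864), Ifrd2 (0.862) and Slc26a1 (0.856), and for Slc2a2 Gm38485 (0.889), Slco1b2 (0.869) and Car8 (0.857). Slc2a5 had the weakest likeness, with Gm34934 (0.768), Bmf (0.727) and Fcer1g (0.723).

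Several members share sequence with neighbors or copies, and the counts of Tkfc, Glyctk and Sord were not whole numbers in any library, whereas those of Khk, Slc2a2 and Slc2a5 were whole in all 16. Of the 50-base words in Glyctk transcripts, 45.1% also occur on the opposite strand in D030055H07Rik, which had group means of 3.24 to 4.94 CPM and was not called against HFD. Sord shares 31.3% with Gm6652 on the same strand, whose group means lay between 38.8 and 44.6 CPM with no call against HFD. Tkfc shares 9.77% with Cyb561a3 and 5.19% with Ddb1, both on the opposite strand. Cyb561a3 fell with the inhibitor against HFD from 25.5 to 15.2 CPM, a log2 fold change of -0.75 (edgeR adjusted p = 0.00879), beside 347 to 138 CPM for Tkfc. Ddb1 averaged 189.5 ± 14.39 CPM in HFD and 177.5 ± 19.87 CPM with the inhibitor (SD). Whether the counting used strand is not given in the sources used here, so the values of Tkfc and Glyctk are uncertain to the extent of this sharing. Those of Sord are uncertain with or without strand, since its copy lies on the same strand. The part of the sharing in the results was not tested.

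Some markers of other cells and tissues were also called in HFD + Inhib versus HFD. The 10 macrophage markers summed to 281 ± 26.3 CPM in HFD and 222 ± 41.1 in HFD + Inhib, with 2 of 10 lower, and the 7 stellate cell and fibroblast markers to 418 ± 41.8 and 320 ± 14.96, with 2 of 7 lower. The 6 endothelial markers summed to 295 ± 18.6 and 287 ± 9.21 CPM, with 1 higher. The 7 lymphocyte markers summed to 5.46 ± 2.23 and 1.93 ± 0.486 CPM, with 4 of the 6 tested lower, whereas the adipocyte sum was 2.84 ± 3.29 CPM in HFD and 34.6 ± 16.3 with the inhibitor, nearly all from Cfd. Both tested intestinal markers were higher, Fabp2 from 82.4 to 113 CPM and Lgals4 from 7.15 to 21.9 CPM, and Cela1, the 1 tested pancreatic marker, was lower, from 15.5 to 5.24 CPM. The other pancreatic markers, Prss2, Cpa1 and Amy2a5, were too low to test, with group means of at most 0.085 CPM. Calls of the pancreatic marker here are therefore of Cela1 alone. Of the tested cholangiocyte and neutrophil markers, edgeR called none, and none had an unadjusted p under 0.05. Between the treatments, where Tkfc and Sord were lower with the inhibitor, 4 of the 7 hepatocyte markers (Alb, Ttr, Serpina1c and Ass1) were lower and Cyp2e1 was higher. There 5 of the 10 macrophage markers were lower, from a sum of 331 ± 39.2 CPM with siRNA, as were 2 of 7 stellate cell, 2 of 6 lymphocyte, 1 of 6 endothelial and the pancreatic marker, and 1 endothelial, the adipocyte and 1 of 2 intestinal markers were higher. In HFD + siRNA versus HFD, Serpina1c rose from 4310 to 6401 CPM, Cd4 from 1.18 to 3.66 CPM and Cela1 from 15.5 to 24.4 CPM, and edgeR called no other marker of these lists. In HFD versus LFD, Apoa1 and Serpina1c were lower, and Reln (stellate cells), Cfd (adipocytes), Cela1 (pancreas) and Fabp2 (intestine) were higher. In HFD + Inhib versus LFD, 6 of 7 hepatocyte markers were lower and 1 was higher. Of 6 endothelial markers 3 were lower and 1 was higher. Lower too were 3 of 10 macrophage, 2 of 7 stellate cell, 3 of 6 lymphocyte, 1 of 3 neutrophil and the pancreatic marker. The adipocyte and both intestinal markers were higher. In HFD + siRNA versus LFD none was lower. There 1 macrophage, 1 stellate cell, 1 lymphocyte, the adipocyte, the pancreatic and 1 intestinal marker were higher. Among all tested genes, edgeR called 8.42% lower and 9.8% higher in HFD + Inhib versus HFD, and 16.6% and 17.3% between the treatments. The shares lower and higher were 6.55% and 5.2% in HFD + siRNA versus HFD, and 8.8% and 9.58% in HFD versus LFD. Against LFD they were 18.2% and 18.8% with the inhibitor, and 3.88% and 4.75% with siRNA. The part of any of these marker shifts in the calls of the 6 genes and of the listed genes was not tested.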

How the data were processed

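Expected counts of the 16 libraries, 1 value per gene symbol, are in the table that the authors deposited. The submitters' processing notes name STAR, RSEM and the build mm39, with no versions, whereas the paper's methods name HTG EdgeSeq, and which assay made the table cannot be told apart. RSEM divides reads among genes that share sequence, and 15.1% of the deposited values are not whole (tolerance 0.001). Of the symbols, 48908 matched RefSeq and 37796 GENCODE M21. Coordinates are those of RefSeq on GRCm38.p6, not of mm39, and transcripts were used for GC content, length and shared 50-base words.

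Values were rounded to whole numbers before testing, and libraries were scaled by TMM (factors 0.929 to 1.088). The 18335 genes kept by filterByExpr (minimum count 10, minimum total 15) of 33142 with any count were tested in 1 fit of the 16 libraries with the quasi-likelihood test of edgeR, p-values adjusted after Benjamini and Hochberg (Benjamini-Hochberg), and a threshold of 0.05. The common dispersion was 0.0380. Intervals are at 95%. R 4.3.3, edgeR 4.0.16, limma 3.58.1 and DESeq2 1.42.0 were used, and the scripts were tested on simulated data. Within groups, the chi-square statistic per gene between library pairs lay between 18.5 and 136 over 24 pairs, so that all 16 were counted as separate samples. Alternatives were DESeq2 and its size factors, no filter, at least 10 counts in every library, only the 2 groups compared, a block for the replicate number, leaving out each replicate, and offsets from a trend on GC content and length, which covers 15865 genes (86.5%) with all 6 members.

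The members were picked by symbol with no measured value in the rule, but they, the lists and the tests were chosen with earlier results of these data known. Named are the 6 members, and from the list of other fructose, sorbitol and sugar transport genes the aldolases, Adh1, the aldehyde dehydrogenases, the aldose reductases, the hexokinases, Gckr and any gene called in HFD versus LFD or in a treatment against HFD, and from the ChREBP list Mlxipl, Pklr, Txnip and G6pc. Genes of like pattern are the nearest 3 by Pearson correlation of log2 CPM (prior count 2) among genes averaging at least 1 on that scale. Some genes of these lists are not reported here, and the counts leave them out. Akr1a1 is counted with the aldose reductases, and Cyb561a3, D030055H07Rik, Ddb1 and Gm6652 were added as partners in sequence.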

Additional observations from a re-analysis of the deposited data

Results flagged for a closer look

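In 4 of 24 sets of 4 libraries (6 genes in 4 groups), 1 library stood apart from the other 3 by a gap past Dixon's 95% limit for 4 values, which chance passes in about 1 of 20 sets. Tkfc was at 485.6 CPM in HFD replicate 2, beside 290.3 to 315.5 CPM in the other HFD libraries, and that library also had the lowest hepatocyte and the highest adipocyte and lymphocyte marker sums of its group. Tkfc was also at 183.7 CPM in HFD + Inhib replicate 2, beside 116.5 to 127.1 CPM. Sord was at 802 CPM in LFD replicate 1, beside 1039 to 1077 CPM, and at 1194 CPM in HFD replicate 4, beside 1068 to 1077 CPM.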

How the results depend on the processing

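Over the 6 members, 6 comparisons and 15 alternatives, 491 of 540 log2 fold changes kept their direction and their side of the threshold, 7 lost and 6 gained a call, and 36 changed sign, none of them called. The falls of Khk with siRNA (-4.62 to -4.27) and of Khk (-1.28 to -1.03) and Tkfc (-1.502 to -1.12) with the inhibitor against HFD kept their calls in all 15, and the calls of Glyctk and Sord did not, as given above. The correction for GC content and length turned HFD versus LFD to 0.197 for Khk, -0.025 for Slc2a2 and 0.002 for Slc2a5, HFD + siRNA versus HFD to 0.254 for Slc2a2 and -0.015 for Slc2a5, and HFD + Inhib versus LFD to 0.103 for Glyctk. With it, 1 member was called in HFD versus LFD (0 before), 2 in HFD + siRNA versus HFD (1 before), and 1429 genes in the latter (2154 before). Across 8345 genes, which are not independent, the log2 fold change had a Spearman correlation with GC content of -0.524 for the diet. Against HFD it was 0.503 for the siRNA and -0.273 for the inhibitor, and between the treatments -0.531. Against LFD it was -0.0835 for the siRNA and -0.555 for the inhibitor. Of the 6 members, 4 lie above the median GC content of 50% by over 3 points.

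Values near 0 changed sign for Khk in HFD versus LFD with at least 10 counts in every library (0.005) and the replicate block (0.004), for Slc2a5 in HFD + siRNA versus LFD with no filter (0.002), the replicate block (0.003) and only the 2 groups (0.005), and for Slc2a2 in HFD + Inhib versus LFD with no filter (0.013), at least 10 counts (0.012) and the replicate block (0.02). Replicate numbers did not pair the samples: correlations of same-numbered libraries ran from -0.132 to 0.336, 6 of 24 were over 0.1, and 8 of 24 were best with their own number. Fitting only the 2 groups gave 808 genes in HFD + siRNA versus LFD (1582 in the fit of all groups).

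With 1 library left out at a time, the log2 fold change ran in HFD versus LFD from -0.122 to 0.153 for Khk, from -0.094 to 0.189 for Tkfc and from -0.416 to 0.118 for Slc2a5. Against HFD, Slc2a5 lay between -0.106 and 0.403 with siRNA and between -0.597 and 0.025 with the inhibitor. Against LFD, Slc2a2 ran from -0.013 to 0.314 and Slc2a5 from -0.21 to 0.21 with siRNA, and Slc2a2 from -0.168 to 0.159 with the inhibitor. Some values that were not called kept their sign and still moved. In HFD versus LFD, Slc2a2 ran from 0.065 to 0.391 and Sord from 0.068 to 0.196. Between the treatments Slc2a2 ran from -0.231 to -0.078. In HFD + Inhib versus LFD, Glyctk ran from -0.299 to -0.098. The genes called ran from 2001 to 3691 in HFD versus LFD (3370 with all), 1100 to 1981 in HFD + siRNA versus HFD (2154), 2532 to 3050 in HFD + Inhib versus HFD (3339) and 965 to 1456 in HFD + siRNA versus LFD (1582). The members called ran from 2 to 3 with the inhibitor against HFD and from 2 to 4 between the treatments. Slc2a5 had 58 to 193 counts per library and SDs of 1.36 to 1.78 CPM on group means of 3.40 to 4.47 CPM. The cause of the changes was not tested.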
